A study of Mus musculus with 29 samples.

Results

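The mitochondrial carriers of the SLC25 family were followed through RNA that was pulled down on tagged ribosomes from mouse brain. All rows of the authors' gene table with a symbol made of Slc25a and a number were taken, and a row was kept where some group had all of its libraries above 20 counts. This left 39 carriers of 44 such rows, in a table of 36172 gene rows of which 14132 met the same count rule. The family was picked because Slc25a34 is among the largest differences between the positive and negative fraction of the Aldh1l1 line, so the values of that comparison are given as a description, with no p-value for any carrier. The carriers nearest the count rule on the inside were Slc25a24, Slc25a21 and Slc25a47, whose lowest counts in their best group were 51.8, 56.0 and 56.9. The 5 rows outside were Slc25a2, Slc25a31, Slc25a41, Slc25a43 and Slc25a48, which never exceeded 14.9 counts in any library.

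The NuTRAP allele gives a cell that has expressed Cre a ribosomal protein fused to EGFP. Ribosomes of those cells are then captured with an antibody against EGFP, and the RNA on them is read as the positive fraction, while the unbound remainder is the negative fraction and the lysate before capture is the input. Aldh1l1-Cre/Ert2+; NuTRAP+ mice carry a Cre driven by the promoter of Aldh1l1, an enzyme of folate metabolism used as a marker of astrocytes. Cx3cr1-Cre/Ert2+; NuTRAP+ mice carry Cre knocked into one allele of Cx3cr1, a chemokine receptor of microglia and other macrophages. All mice had 1 copy of the driver and 1 of the NuTRAP allele, all had received tamoxifen, and all were about 3 months old. Both sexes were used, and the sex of a mouse is not in the labels. RNA came from one hemisphere of each mouse. The Aldh1l1 line gave a negative and a positive fraction from each of 3 mice. The Cx3cr1 line gave an input, a negative and a positive fraction from each of 6, with whole-tissue RNA from 5 of them, which makes 29 libraries in 6 groups. Ribosomes of any other brain cell in which a driver was active were captured too, and fewer cells of a type cannot be told apart from less RNA per cell in such samples.

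Most SLC25 carriers sit in the inner mitochondrial membrane and move nucleotides, phosphate, amino acids, carboxylates, cofactors and metals between the cytosol and the matrix. Slc25a17, a carrier of peroxisomes, and Slc25a46, a protein of the outer mitochondrial membrane, are exceptions. The carriers set what enters the mitochondrial pathways of energy, amino acid and lipid metabolism. Astrocytes take up the glutamate that neurons release and burn part of it in their mitochondria, for which glutamate must cross this membrane. Microglia are the resident macrophages of the brain.

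The promoters of the carriers that mark the 2 positive fractions are shown first, as the 250 bases before the RefSeq start site on the gene's own strand in GRCm38.p6, the mm10 assembly. Slc25a34 and Slc25a18 stood apart in the Aldh1l1-NuTRAP positive fraction and Slc25a45 in the Cx3cr1-NuTRAP positive fraction. Both strands were searched for the 7 motifs named below them, and capitals mark exact matches, here on the strand opposite to the gene. The windows are chr4:141623835-141624084 for Slc25a34, which lies on the minus strand, chr6:120773518-120773767 for Slc25a18 and chr19:5877572-5877821 for Slc25a45, both on the plus strand. The RefSeq start of Slc25a45 lies upstream of the gene start in the authors' table.
Slc25a34: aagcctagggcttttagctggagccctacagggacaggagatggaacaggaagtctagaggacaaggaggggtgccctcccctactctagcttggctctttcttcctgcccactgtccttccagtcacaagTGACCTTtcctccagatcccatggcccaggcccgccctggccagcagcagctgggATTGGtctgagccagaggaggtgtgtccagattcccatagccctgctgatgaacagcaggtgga
Slc25a18: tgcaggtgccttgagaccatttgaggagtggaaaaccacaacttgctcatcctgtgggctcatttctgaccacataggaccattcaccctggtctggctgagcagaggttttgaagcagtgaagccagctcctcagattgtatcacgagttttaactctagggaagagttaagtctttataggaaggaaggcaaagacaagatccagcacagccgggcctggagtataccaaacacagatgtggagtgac
Slc25a45: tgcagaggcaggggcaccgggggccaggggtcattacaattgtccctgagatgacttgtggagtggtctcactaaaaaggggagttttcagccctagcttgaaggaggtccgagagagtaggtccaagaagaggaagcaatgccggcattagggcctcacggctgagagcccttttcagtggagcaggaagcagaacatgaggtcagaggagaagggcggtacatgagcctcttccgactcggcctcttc

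The Slc25a34 window held AAGGTCA, a hexamer-based site read by several nuclear receptors, beginning 119 bases before the start, and CCAAT 64 bases before it. No other carrier of the 31 with a matched promoter held AAGGTCA, a share of 3.23% against 4.7% of all genes. The windows of Slc25a18 and Slc25a45 held none of the searched letters. CCAAT was in 17 of the 31 carriers, or 54.84%, against 37.49% of all genes, CACGTG in 6 or 19.35% against 6.86%, CCGGAAG in 5 or 16.13% against 7.83%, and GCGCANGC in 3 or 9.68% against 9.38%. GAGGAAGT and the NFI palindrome were in none of the 31 and in 2.79% and 0.04% of all genes. The median G and C content of the carriers' windows was 57.0% against 52.4% over all windows, and a match is a description of letters, not of binding.

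Library totals lay between 4260795 counts, for mouse 210's tissue, and 26857890 counts. Levels are given as CPM, a gene's counts scaled to one common library total with TMM factors. The 7 astrocyte markers summed to 16420 to 19690 CPM in the Aldh1l1-NuTRAP positive fraction against 1964 to 2195 in its negative fraction, and the 7 microglia markers to 1620 to 4293 CPM in the Cx3cr1-NuTRAP positive fraction against 204.2 to 230.2 in its input. Of the 29 libraries, 4 stood apart from their groups in a shared way, both of mouse 290 and the input and negative fraction of mouse 155. Their genes deviated from the group median by a median of 0.126 to 0.312 on the log2 scale, their deviations correlated with one another across genes at 0.566 to 0.786, and they ran against exon length at a Spearman rho of -0.434 to -0.547. The positive fraction of mouse 155 did not share this pattern, with a correlation of -0.371 to its negative fraction. The positive fractions of mice 155 and 194 and the whole tissue of mouse 210 deviated by 0.175, 0.228 and 0.197 in other ways, and each mouse was left out in turn. Results that rest on the first 4 libraries are given with and without them. CPM are compared between genes only after division by exon length in kb.

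Slc25a4 and Slc25a5, the heart and ubiquitous forms of the ADP/ATP exchanger, and Slc25a3, the phosphate carrier of ATP synthesis, were among the 4 highest carriers per kb in every group. In the Cx3cr1-NuTRAP input Slc25a4 stood at 271 ± 13.4 CPM per kb (SD, n = 6), Slc25a5 at 131 ± 11.2 and Slc25a3 at 79.1 ± 8.40, and these 3 made up 28.70%, 13.89% and 8.38% of the family's summed level per kb. The order of the first 3 was the same in the Cx3cr1-NuTRAP positive fraction, at 281 ± 46.8, 142 ± 19.2 and 94.7 ± 6.18 CPM per kb. In the Aldh1l1-NuTRAP positive fraction Slc25a18, a glutamate carrier, came second at 375 ± 23.3 CPM per kb (SD, n = 3) between Slc25a4 at 459 ± 72.6 and Slc25a5 at 246 ± 28.7. Slc25a18 made up 19.74% of the family there and 2.82% in the negative fraction of the same mice. The summed level of the family was 1902 ± 184 CPM per kb in the Aldh1l1-NuTRAP positive fraction, and the group means of the other 5 groups lay between 944 and 1005. Mice 290, 293 and 294 were at 2113, 1770 and 1824 CPM per kb in that fraction. Their TMM factors there were 0.731, 0.775 and 0.779, against 0.969 to 1.08 in all other libraries, and a lower factor raises CPM.

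In the Aldh1l1-NuTRAP mice, Slc25a34 had the largest difference of the family, which is the value it was picked for. Slc25a34 (Entrez 384071, chr4:141618825-141623834, minus strand) encodes a carrier without a settled substrate. Its level was 142, 115 and 122 CPM in the positive fractions of mice 290, 293 and 294, and 7.77, 6.41 and 6.43 CPM in their negative fractions. The 2 fractions were far apart in all 3 mice, with a log2 fold change of 4.16 ± 0.17 (SE), or 17.9-fold. In the Cx3cr1-NuTRAP mice Slc25a34 ran from 6.89 to 11.0 CPM in the input, from 6.43 to 11.2 in the negative fraction, from 6.92 to 10.0 in the positive fraction and from 7.85 to 12.5 in whole tissue. These 4 ranges overlap one another, and every library of them lies far below the 3 Aldh1l1-NuTRAP positive fractions.

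Slc25a18, which brings glutamate into the matrix together with a proton, was at 766, 709 and 678 CPM in the Aldh1l1-NuTRAP positive fractions of mice 290, 293 and 294 and at 66.4, 44.0 and 47.2 CPM in their negative fractions. The log2 fold change was 3.73 ± 0.21. Slc25a21, the carrier of 2-oxoadipate in lysine and tryptophan breakdown, was at 6.44, 4.31 and 6.39 CPM against 2.12, 1.05 and 0.563 CPM, with a log2 fold change of 2.25 ± 0.47. It was a family member only through this positive fraction. Slc25a20, the exchanger that brings acylcarnitines to fatty acid oxidation, was at 49.7, 53.8 and 61.8 CPM against 10.7, 13.0 and 13.3 CPM, with a log2 fold change of 2.10 ± 0.18. For Slc25a18 and Slc25a20 every positive fraction lay above every negative fraction.

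At the other end of the same comparison stood Slc25a37, or mitoferrin 1, which imports iron for heme. It was at 10.5, 13.8 and 13.9 CPM in the positive fractions of mice 290, 293 and 294 and at 22.5, 38.4 and 37.1 CPM in the negative fractions, a log2 fold change of -1.41 ± 0.26. Slc25a27, a brain member of the uncoupling protein branch, was at 15.6, 24.6 and 23.7 CPM against 38.7, 55.8 and 59.7 CPM, at -1.31 ± 0.25. Slc25a22, the second glutamate carrier, was at 81.2, 114 and 116 CPM against 178, 271 and 278 CPM, at -1.27 ± 0.24. None of these 3 overlapped between the fractions. Slc25a36, a pyrimidine nucleotide carrier, was at 7.48, 15.1 and 18.3 CPM against 13.3, 36.4 and 36.5 CPM, and here the lowest negative fraction, that of mouse 290, lay inside the range of the positive fractions.

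Of the 38 carriers that met the count rule in the Aldh1l1-NuTRAP mice, 26 had a log2 fold change above 0, and the median was 0.36 against 0.04 over all genes tested. At an adjusted p under 0.05 in edgeR's quasi-likelihood test, 16 were higher and 7 lower in the positive fraction, where 26.8% and 24.8% of all genes were called in those directions and 51.5% in either, and since the family was chosen on this comparison nothing is read from these counts. With library totals alone, which moves the median of all genes to -0.31, the counts are 12 and 10, where 2438 genes were higher and 4828 lower of 13343. With the mouse as a block, whose numbers pair the fractions, they are 20 and 10, where 4931 genes were higher and 4513 lower. Slc25a30 did not meet the count rule in either Aldh1l1-NuTRAP fraction. Without mouse 290 the log2 fold changes were 4.13 ± 0.12 for Slc25a34, 3.85 ± 0.10 for Slc25a18, 2.06 ± 0.13 for Slc25a20, 2.62 ± 0.41 for Slc25a21 and -1.20 ± 0.14 for Slc25a36. The astrocyte markers were higher in the positive fraction in 7 of 7 cases, as were the 4 choroid plexus markers, which summed to 3734 to 4604 CPM against 473.8 to 618.6, and the neuron markers in 5 of 5, the oligodendrocyte markers in 5 of 5, the microglia markers in 7 of 7 and the erythrocyte markers in 4 of 4 cases were lower, at medians of -1.67, -2.53, -2.32 and -2.07. The ependymal markers were higher in 2 of 3 cases and the pericyte and smooth muscle markers in 2 of 4. The part of these markers' cells in the carriers' values was not tested.

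**Figure D1:**
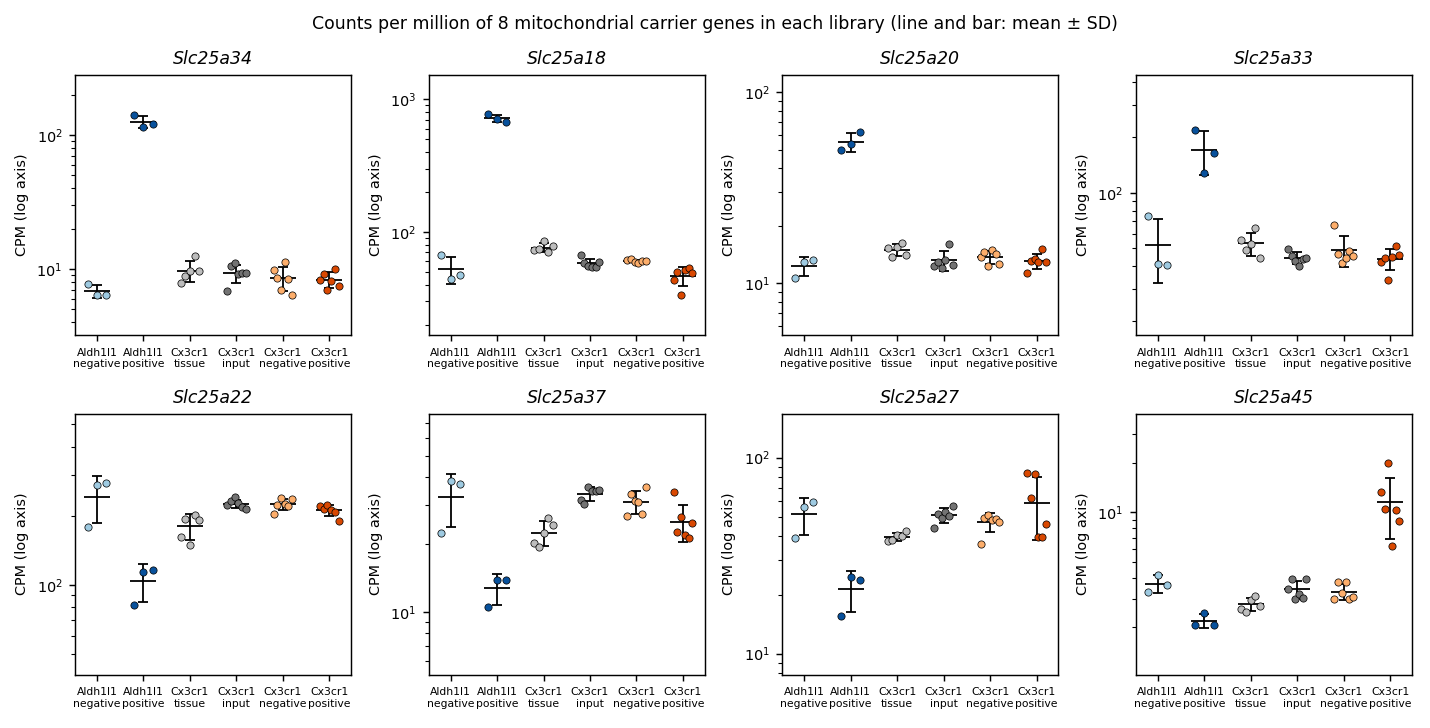
Level of 8 carriers in CPM on a log axis in every library of the 6 groups, with points for libraries and lines and bars for the mean ± SD. The 3 Aldh1l1-NuTRAP positive fractions stand above all other libraries for Slc25a34, Slc25a18, Slc25a20 and Slc25a33 and below all of them for Slc25a22, Slc25a37 and Slc25a27, while the 6 Cx3cr1-NuTRAP positive fractions stand above all others for Slc25a45.

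The 2 positive fractions come from different mice and can be set against each other directly, which asks how carrier RNA on ribosomes differed between the Aldh1l1 and the Cx3cr1 line. The authors report a longer wait after tamoxifen for the Cx3cr1 line than for flow cytometry and imaging of the Aldh1l1 line. Cell type, line, set of mice and any difference in that wait cannot be told apart here. The Aldh1l1-NuTRAP positive fractions are the same 3 libraries as in the comparison above, so the 2 sets of values are not independent. Slc25a34 was left without a test, and its log2 fold change here was 3.81 ± 0.13. Of the other 38 carriers, 20 were higher in the Aldh1l1-NuTRAP positive fraction and 8 lower, where 30.6% and 33.1% of the 13692 genes tested were called and 63.7% in either direction. The median log2 fold change of the 38 was 0.46 against -0.08 over all genes. With library totals alone the median of all genes moved to -0.39 and the counts became 13 and 14, where 2879 genes were higher and 6323 lower, and no called carrier changed sign under any scaling. Slc25a21 met the count rule only in the Aldh1l1-NuTRAP positive fraction, and Slc25a13, Slc25a24, Slc25a30 and Slc25a45 only in the Cx3cr1-NuTRAP positive fraction, so for these 5 passing and differing are not independent, and they are given without p-values. Of the 33 that met it in both groups, 19 were higher and 7 lower.

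The glutamate carriers ran in opposite directions. Slc25a18 was at 33.3 to 53.0 CPM in the 6 Cx3cr1-NuTRAP positive fractions (median 49.3), against the 678 to 766 CPM given above. Its log2 fold change was 3.83 ± 0.15, or 14.2-fold, at an adjusted p of 9.97e-09. Slc25a22 was at 190 to 223 CPM (median 213) in the Cx3cr1-NuTRAP positive fraction and at 81.2 to 116 CPM in the Aldh1l1-NuTRAP positive fraction, with a log2 fold change of -1.13 ± 0.14 and an adjusted p of 4.04e-05. Neither gene overlapped between the 2 groups.

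Among the carboxylate carriers, Slc25a21 stayed at 0.505 to 1.63 CPM in the Cx3cr1-NuTRAP positive fractions (median 0.681), a log2 fold change of 2.69 ± 0.34 that is given as a description. Slc25a1, which exports citrate for lipid synthesis, was higher at 1.43 ± 0.12, and Slc25a10, the dicarboxylate carrier, at 1.07 ± 0.13. Slc25a11, which exchanges 2-oxoglutarate for malate, was at 0.35 ± 0.15 and missed the threshold at an adjusted p of 0.0652. It passed in 7 of 15 alternatives, DESeq2 among them, and lay at 0.08 without mouse 290. The acylcarnitine carrier Slc25a20 was at 11.3 to 15.1 CPM in the Cx3cr1-NuTRAP positive fractions (median 13.1), and was higher in the Aldh1l1 line at 1.96 ± 0.13 and an adjusted p of 2.96e-07. The groups did not overlap for Slc25a1, Slc25a10 or Slc25a20. The carriers of ornithine and other basic amino acids, Slc25a15 and Slc25a29, were both higher, at 1.65 ± 0.11 and 0.87 ± 0.14.

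The pyrimidine nucleotide carriers parted in the same way as the glutamate carriers. Slc25a33 was at 220, 129 and 164 CPM in the Aldh1l1-NuTRAP positive fractions of mice 290, 293 and 294 and at 33.7 to 51.3 CPM in the Cx3cr1-NuTRAP positive fractions (median 44.6). The log2 fold change was 1.85 ± 0.16 at an adjusted p of 3.04e-06. Slc25a36 was at 18.0 to 31.4 CPM in the Cx3cr1-NuTRAP positive fractions (median 22.8), and was lower in the Aldh1l1 line at -0.92 ± 0.29 and an adjusted p of 0.0166, with 1 of the 3 libraries inside that range. Among the carriers of coenzymes and methyl donors, Slc25a16, Slc25a17 and Slc25a26 were higher at 0.78, 0.37 and 0.54, and the latter pair lost its call with library totals alone, as did Slc25a17 without mouse 294.

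The nucleotide and phosphate carriers at the core of ATP synthesis differed by less. Slc25a4 was higher at 0.60 ± 0.16, Slc25a5 at 0.69 ± 0.14 and Slc25a3 at 0.58 ± 0.13, with adjusted p-values of 0.00749, 0.0011 and 0.00305, and all 3 lost their call with library totals alone. The ATP-Mg/phosphate carriers Slc25a23, Slc25a24 and Slc25a25 lay at -0.39, -0.48 and -0.49, of which Slc25a25 passed and Slc25a23 did not, and Slc25a23 lay at -0.06 without mouse 290. Slc25a38, which supplies glycine for heme, was higher at 1.11 ± 0.11 and Slc25a39, a glutathione carrier, at 1.00 ± 0.13. The branched-chain amino acid carrier Slc25a44 was higher at 0.47 ± 0.17 with overlapping groups and lost its call in 5 of 15 alternatives, namely with library totals and without the positive fraction of any one of mice 155, 192, 293 and 294, and the carriers without a settled substrate Slc25a47 and Slc25a35 were higher at 1.54 ± 0.21 and 1.01 ± 0.29, the latter not without mouse 294.

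The lowest value in this comparison was that of Slc25a45, a carrier without a settled substrate. It was at 2.07, 2.46 and 2.07 CPM in the Aldh1l1-NuTRAP positive fractions of mice 290, 293 and 294 and at 6.29 to 19.9 CPM in the Cx3cr1-NuTRAP positive fractions (median 10.4). Its log2 fold change was -2.49 ± 0.36, or 5.61-fold lower, given as a description. Slc25a27 was at 39.2 to 83.7 CPM in the Cx3cr1-NuTRAP positive fractions (median 54.1), and its difference was -1.56 ± 0.31 at an adjusted p of 0.00103. These libraries fell into 2 sets with none near the median. Mice 155, 192 and 194 were at 83.7, 62.5 and 82.6 CPM, and mice 209, 210 and 277 at 39.4, 39.2 and 45.8 CPM. Slc25a37 was at 21.3 to 34.2 CPM there (median 23.8), and its difference was -1.09 ± 0.19 at an adjusted p of 0.000498. Neither Slc25a27 nor Slc25a37 overlapped between the groups. Slc25a12, the aspartate/glutamate carrier of the malate-aspartate shuttle, was lower at -0.93 ± 0.14 and Slc25a14, another member of the uncoupling protein branch, at -0.81 ± 0.15. Slc25a28, Slc25a32, Slc25a40, Slc25a42 and Slc25a46 did not pass, at log2 fold changes of -0.52 to 0.44, of which Slc25a42 passed in 6 of 15 alternatives. Slc25a13 and Slc25a30, which met the count rule in 1 group only, lay at -0.78 and -0.48. The 7 astrocyte and 4 choroid plexus markers were all higher in the Aldh1l1-NuTRAP positive fraction, and the 7 microglia, 5 neuron and 5 oligodendrocyte markers were all lower, at median log2 fold changes of 3.17, 2.41, -5.59, -1.50 and -1.46. The ependymal markers were higher in 2 of 3 cases, at a median of 1.75, the pericyte and smooth muscle markers were higher in 1 of 4 and the endothelial markers lower in 1 of 5. Their part in the carriers' differences was not tested.

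**Figure D2:**
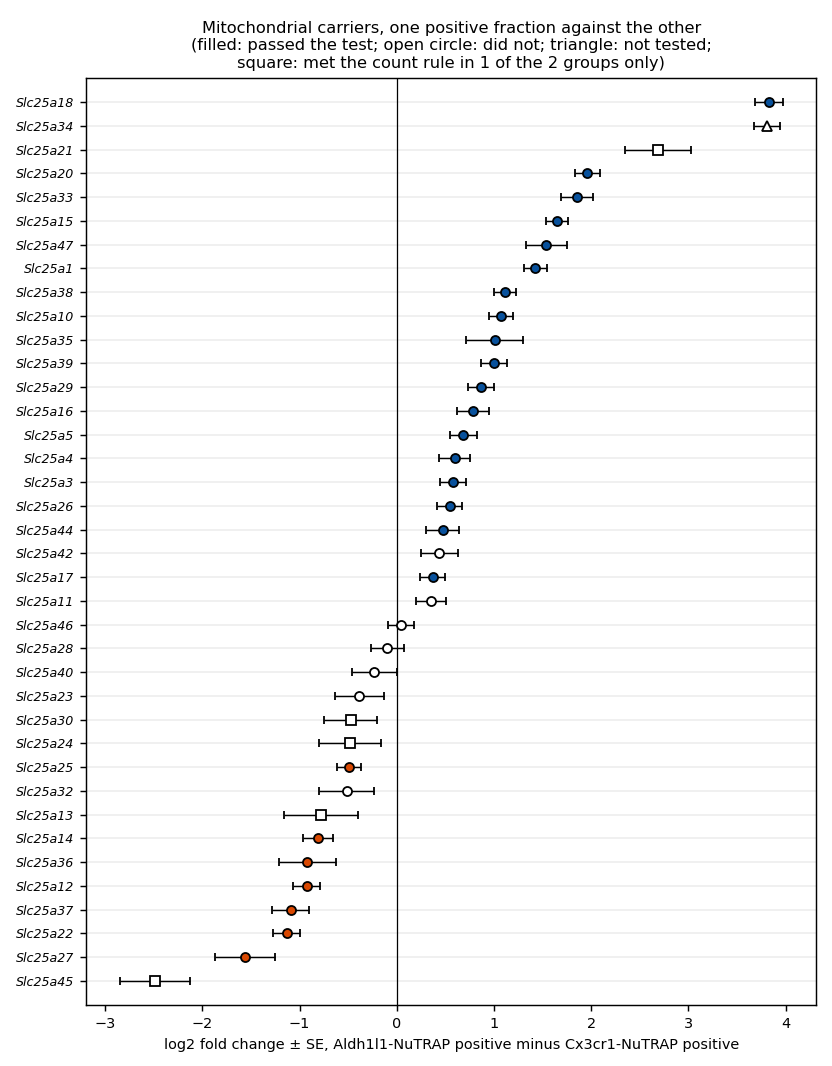
Log2 fold change ± SE of the carriers between the Aldh1l1-NuTRAP positive fraction (n = 3) and the Cx3cr1-NuTRAP positive fraction (n = 6), in order of size, with filled points for carriers that passed at an adjusted p under 0.05 a triangle for Slc25a34, which was not tested, and squares for carriers that met the count rule in 1 of the groups only. Slc25a18 and Slc25a34 stand alone above 3, and Slc25a45 alone lies below -2.

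In the Cx3cr1-NuTRAP mice the positive fraction was compared with the input of the same mice, and differences were smaller. Of the 38 carriers tested, 7 rose and 11 fell, where 23.2% and 25.6% of the 13862 genes tested were called and 48.8% in either direction, and the carriers' shares of 18.4% and 28.9% lay near these. Their median log2 fold change was -0.03 against 0.00 over all genes. With the input of mouse 155 left out, 9 rose and 9 fell. In this comparison the astrocyte markers fell in 5 of 7 cases, the oligodendrocyte markers in 5 of 5, the choroid plexus markers in 2 of 4, the pericyte and smooth muscle markers in 2 of 4 and the neuron markers in 1 of 5. The neuron markers summed to 3812 to 5857 CPM in the positive fractions and to 5445 to 5734 CPM in the inputs. The astrocyte markers summed to 1561 to 2389 CPM and to 2585 to 2898 CPM. In the Aldh1l1-NuTRAP positive fractions the neuron markers summed to 1585 to 1975 CPM. The microglia markers rose in 7 of 7 cases, the endothelial markers in 2 of 5 and the pericyte and smooth muscle markers in 1 of 4, and the part of all these in the carriers' rises and falls was not tested.

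Slc25a45 had the largest change. It was at 2.96 to 3.96 CPM in the inputs (median 3.31), against 6.29 to 19.9 CPM in the positive fractions. It rose in 6 of 6 mice without overlap, by a log2 fold change of 1.73 ± 0.22, or 3.32-fold, at an adjusted p of 2.7e-05. Slc25a45 stood at 19.9, 13.3, 10.5, 10.4, 8.90 and 6.29 CPM in the positive fractions of mice 194, 155, 192, 210, 277 and 209, whose microglia markers summed to 4293, 2428, 2667, 1922, 2266 and 1620 CPM. The highest and the lowest mouse were the same on both measures and the order between them was not. Against the negative fraction of the same mice Slc25a45 rose by 1.78 ± 0.22 and against whole tissue its log2 fold change was 2.09 ± 0.26, the first at an adjusted p of 3.7e-05. These comparisons share the 6 positive fractions, and against tissue the gene met the count rule only in the positive fraction, so that value is a description.

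Slc25a28, or mitoferrin 2, was at 26.4 to 32.3 CPM in the inputs (median 28.5) and at 33.5 to 49.2 CPM in the positive fractions (median 40.3). It rose in 6 of 6 mice by 0.48 ± 0.10 at an adjusted p of 0.000918. Slc25a23 was at 329 to 439 CPM in the inputs (median 385) and at 406 to 502 CPM in the positive fractions (median 467), and rose by 0.27 ± 0.08, a call lost with all groups in one fit. Slc25a10 was at 15.7 to 19.2 CPM in the inputs (median 16.8) and at 18.1 to 23.4 CPM in the positive fractions (median 20.9), and rose by 0.26 ± 0.08. Both rose in 6 of 6 mice with overlapping groups. Slc25a1, Slc25a3 and Slc25a39 rose by 0.25, 0.24 and 0.22, and Slc25a3 and Slc25a39 lost their call once the mouse was fitted as a block, at adjusted p-values of 0.0589 and 0.0525. Slc25a1 lost its call without mouse 210 or 277, Slc25a3 without 209, 210 or 277, and Slc25a39 without 209 or 210.

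Among the carriers that fell, Slc25a36 went from 33.9 to 42.5 CPM in the inputs (median 37.3) to 18.0 to 31.4 CPM in the positive fractions (median 22.8), in 6 of 6 mice and without overlap, by a log2 fold change of -0.66 ± 0.13 at an adjusted p of 0.00112. Slc25a30, of the uncoupling protein branch, was at 4.39 to 7.78 CPM in the inputs (median 5.84) and at 3.08 to 4.16 CPM in the positive fractions (median 3.95), and fell by -0.64 ± 0.15. Slc25a16, linked to coenzyme A in mitochondria, was at 33.5 to 37.1 CPM in the inputs (median 35.0) and at 18.3 to 27.7 CPM in the positive fractions (median 25.8). It fell by -0.57 ± 0.11, and neither it nor Slc25a30 overlapped between the groups.

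Slc25a13, the second aspartate/glutamate carrier, was at 4.34 to 7.42 CPM in the inputs (median 5.00) and at 2.16 to 5.26 CPM in the positive fractions (median 3.54), falling by -0.59 ± 0.21 in 5 of 6 mice. It lost its call without any one of mice 155, 192, 194 and 277, and without the input of mouse 155. The remaining falls were those of Slc25a15, Slc25a17, Slc25a18, Slc25a35, Slc25a37, Slc25a44 and Slc25a46 at -0.21 to -0.52. Slc25a15 and Slc25a35 lost their call with the mouse as a block, at adjusted p-values of 0.0826 and 0.0773. Slc25a15 and Slc25a17 each lost it in 10 of 14 alternatives and Slc25a35 in 9 of 13, for Slc25a17 and Slc25a35 also without the input of mouse 155. Slc25a46 lost it without mouse 155, 192 or 210. Slc25a18 was at 54.0 to 66.7 CPM in the inputs and at 33.3 to 53.0 CPM in the positive fractions without overlap, and fell by -0.33 ± 0.11 at an adjusted p of 0.0192, a call lost without mouse 155 or 192. The carriers highest in the Aldh1l1 line otherwise did not pass here, with Slc25a34 at -0.18 ± 0.13, Slc25a20 at -0.03 ± 0.10 and Slc25a33 at -0.03 ± 0.09, while Slc25a21 did not meet the count rule in this line.

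**Figure D3:**
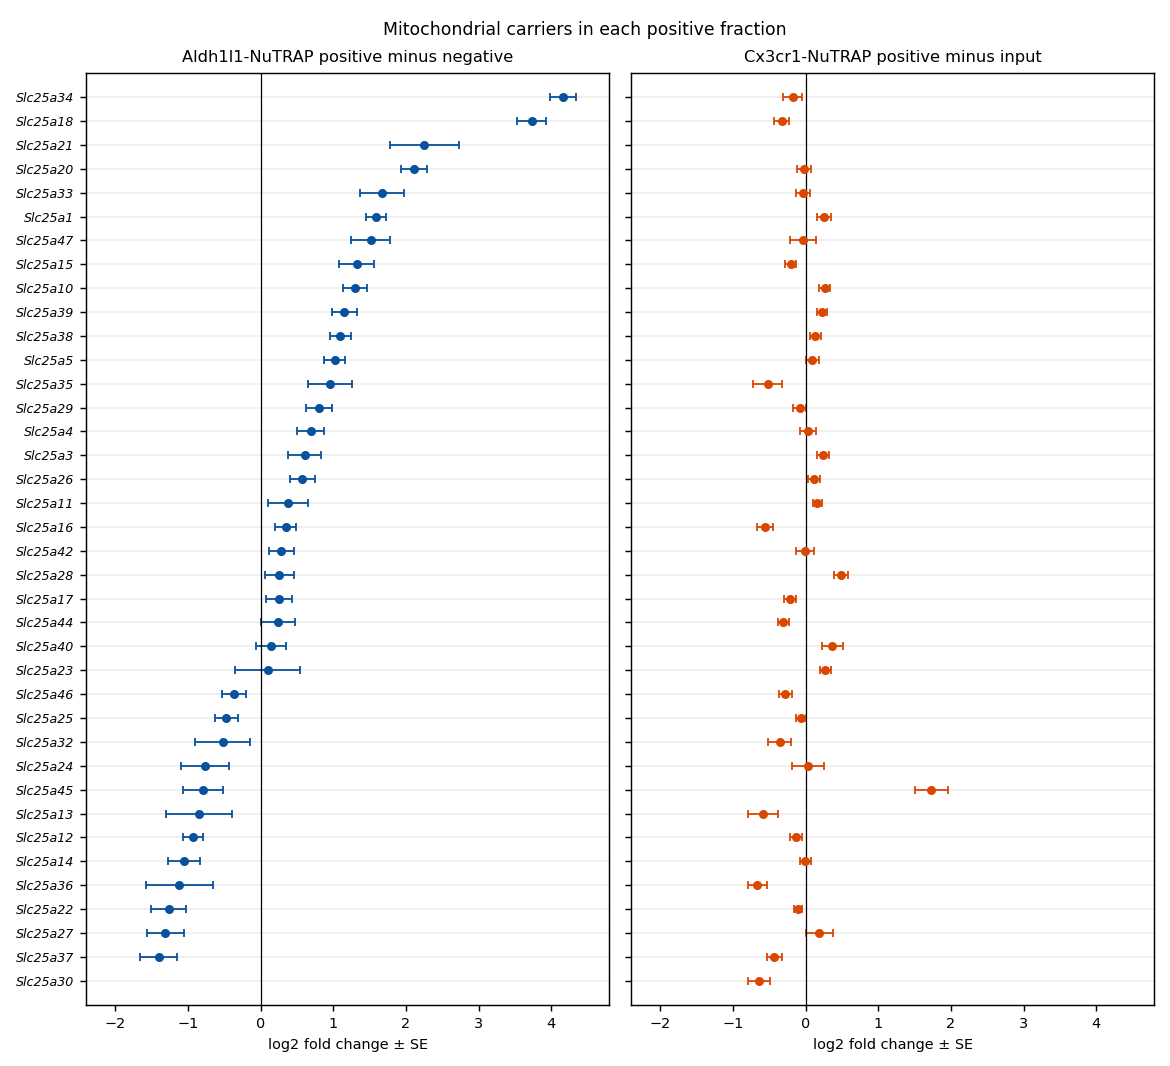
Log2 fold change ± SE of the carriers in the Aldh1l1-NuTRAP positive against negative fraction (left, n = 3 mice) and in the Cx3cr1-NuTRAP positive fraction against input (right, n = 6 mice), ordered by the left values. The left values run from -1.41 to 4.16 and the right ones from -0.66 to 1.73, with Slc25a45 alone above 1 on the right, and carriers without a point, Slc25a30 on the left and Slc25a21 on the right, did not meet the count rule.

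Against the negative fraction of the same Cx3cr1-NuTRAP mice, 2 of 38 carriers rose and 3 fell, where 12.8% and 11.5% of genes were called and 24.3% in either direction. Slc25a45 and Slc25a10 rose, and Slc25a16, Slc25a18 and Slc25a46 fell, at -0.44 ± 0.11, -0.38 ± 0.10 and -0.31 ± 0.10. With the mouse as a block only Slc25a45 rose, and the call of Slc25a46 was lost. With the negative fraction of mouse 155 left out, only Slc25a45 rose and 5 fell, namely Slc25a16, Slc25a18, Slc25a36, Slc25a37 and Slc25a44. Slc25a10 lost its call in 9 of 14 alternatives and Slc25a46 in 8 of 14. Without mouse 192 none fell in edgeR's test. The astrocyte markers were lower in 5 of 7, the oligodendrocyte markers in 5 of 5, the choroid plexus markers in 2 of 4 and the pericyte and smooth muscle markers in 1 of 4 cases. The microglia markers were higher in 7 of 7, the endothelial markers in 1 of 5 and the pericyte and smooth muscle markers in 1 of 4. The part of all these was not tested.

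Against whole tissue, 10 carriers were higher and 11 lower, where 27.5% and 24.4% of genes were called and 51.8% in either direction. Of the 34 that met the count rule in both groups, 9 rose and 11 fell. After Slc25a45 the largest rises were those of Slc25a23 at 0.66 ± 0.09 and Slc25a28 at 0.61 ± 0.11, and the largest falls those of Slc25a30 at -1.10 ± 0.15, Slc25a24 at -0.91 ± 0.25 and Slc25a36 at -0.74 ± 0.17. With the mouse as a block, over the 5 mice that had tissue, 5 rose and 9 fell. Slc25a22, Slc25a26, Slc25a27, Slc25a29 and Slc25a42 then no longer passed as rises, nor Slc25a25 and Slc25a44 as falls, and Slc25a24 lost its call without mouse 277. In this comparison the astrocyte markers were lower in 6 of 7, the oligodendrocyte markers in 5 of 5, the endothelial markers in 4 of 5, the ependymal markers in 3 of 3 and the pericyte and smooth muscle markers in 3 of 4 cases. The microglia markers were higher in 7 of 7 and the neuron markers in 1 of 5, and the part of all these was not tested.

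The steps that do not involve capture were compared next. The input itself differed from whole tissue in 7 carriers that were higher and 8 that were lower, where 16.3% and 14.2% of genes were called and 30.5% in either direction. Slc25a37 was higher in the input at 0.62 ± 0.09 and Slc25a24 lower at -0.94 ± 0.18, and Slc25a18 was lower in the input at -0.37 ± 0.07. Slc25a35, among the 7, met the count rule only in the input, and of the 34 that met it in both groups 6 were higher and 8 lower. The endothelial and the oligodendrocyte markers were lower in the input in 5 of 5 cases each, the pericyte and smooth muscle markers in 4 of 4 and the ependymal markers in 3 of 3, the astrocyte markers in 2 of 7 and the neuron markers in 1 of 5. The choroid plexus markers were higher in 2 of 4 and the neuron markers in 2 of 5, and the part of all these was not tested. With the mouse as a block 5 carriers were lower in the input. Between the negative fraction and the input only Slc25a28 passed, at 0.33 ± 0.08 and an adjusted p of 0.0365, where 1.35% of genes rose and 4.31% fell, or 5.66% in all, and no carrier fell in edgeR's test, with 3 falling at an unadjusted p under 0.05 and 2 in DESeq2. The call of Slc25a28 was lost without any one of mice 192, 194, 209, 210 and 277, when no carrier rose. Of the markers, 1 of 7 for microglia fell and 1 of 5 for neurons rose, and their part was not tested. With the mouse as a block 13 rose and 2 fell, where 2544 genes rose and 2613 fell of 13773. Without mouse 155, 8 rose and 2 fell, where 1777 genes rose and 2039 fell of 13841. The negative fractions of the 2 lines differed in no carrier in edgeR's test, where 0.125% of genes were called in each direction and 0.249% in all. At an unadjusted p under 0.05, 1 was higher and 1 lower, and DESeq2 called 1 lower. With the negative fractions of mice 290 and 155 left out, 2 were higher and 3 lower in the Aldh1l1 line, namely Slc25a42 at 0.40 ± 0.08 and Slc25a22 at 0.22 ± 0.05, and Slc25a18, Slc25a4 and Slc25a5 at -0.44 ± 0.07, -0.26 ± 0.05 and -0.27 ± 0.05. In that fit 798 genes were higher and 826 lower of 14036. With all libraries the astrocyte markers were lower in the Aldh1l1 line in 2 of 7 and the choroid plexus markers in 1 of 4 cases, the oligodendrocyte markers higher in 1 of 5 and the microglia markers in 1 of 7, and their part was not tested.

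Several carriers come as pairs of closely related genes with the same substrate, and the share of one gene in the pair per kb does not depend on the library's scaling. Slc25a18 made up 95.6% ± 1.03 (SD, n = 3) of the glutamate carrier pair with Slc25a22 in the Aldh1l1-NuTRAP positive fraction. Its share in the negative fraction was 40.8% ± 11.4, where mouse 290 was highest at 53.9%. In the Cx3cr1-NuTRAP mice its share was 44.7% ± 2.47 in the input (n = 6), 45.7% ± 1.75 in the negative fraction, 40.8% ± 4.95 in the positive fraction and 57.1% ± 4.49 in whole tissue (n = 5). The lowest Aldh1l1-NuTRAP positive fraction, at 94.8%, lay above the highest library of any other group, which was 64.0%.

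Slc25a28 made up 83.4% ± 4.85 of the mitoferrin pair with Slc25a37 in the Aldh1l1-NuTRAP positive fraction and 62.5% ± 8.30 in the negative fraction. It made up 72.2% ± 3.33 in the Cx3cr1-NuTRAP positive fraction, where the lowest library was at 69.4%, and 58.0% ± 2.55 in the input, where the highest was at 62.2%. The Aldh1l1-NuTRAP positive fractions lay above their negative fractions, of which the highest was at 71.6%, and the Cx3cr1-NuTRAP positive fractions above their inputs. The Cx3cr1-NuTRAP positive fractions overlapped with the negative fraction of that line, at 64.8% ± 4.74 and up to 72.5%. That highest negative fraction was of mouse 155, a library that stands apart, and the others lay below every positive fraction. The positive fractions also overlapped with whole tissue, at 65.9% ± 3.23 and up to 69.9%.

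The other 3 pairs moved little. Slc25a4 made up 65.0% ± 0.904 of the ADP/ATP carrier pair with Slc25a5 in the Aldh1l1-NuTRAP positive fraction, and the other group means lay between 66.4% and 69.8%. Slc25a4 itself was at 1272, 946 and 1020 CPM and Slc25a5 at 458, 367 and 391 CPM in the positive fractions of mice 290, 293 and 294, against 498 to 779 CPM (median 692) and 191 to 264 CPM (median 244) in the Cx3cr1-NuTRAP positive fractions, without overlap for either. Slc25a12 was at 83.3, 96.0 and 91.8 CPM in the former and at 134 to 178 CPM (median 164) in the latter, again without overlap. Slc25a12 made up 94.2% to 95.8% of the aspartate/glutamate carrier pair with Slc25a13 as a mean of each group. Slc25a39 made up 97.3% ± 0.171 of the glutathione carrier pair with Slc25a40 in the Aldh1l1-NuTRAP positive fraction and 93.8% to 94.7% as a mean of the other groups. Slc25a39 was at 212, 159 and 148 CPM in the Aldh1l1-NuTRAP positive fractions and at 72.9 to 94.6 CPM (median 77.2) in those of the Cx3cr1 line, without overlap, while Slc25a40 was at 16.9, 14.3 and 13.0 CPM and at 11.3 to 23.7 CPM (median 15.1), with overlap. Slc25a5 has 1 named pseudogene, Slc25a5-ps, with which it may share reads. Slc25a35 overlaps Rangrf on the other strand by 1882 bases and Slc25a18 overlaps Atp6v1e1 by 32, in libraries that keep the strand and whose reads the authors kept by direction.

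**Figure D4:**
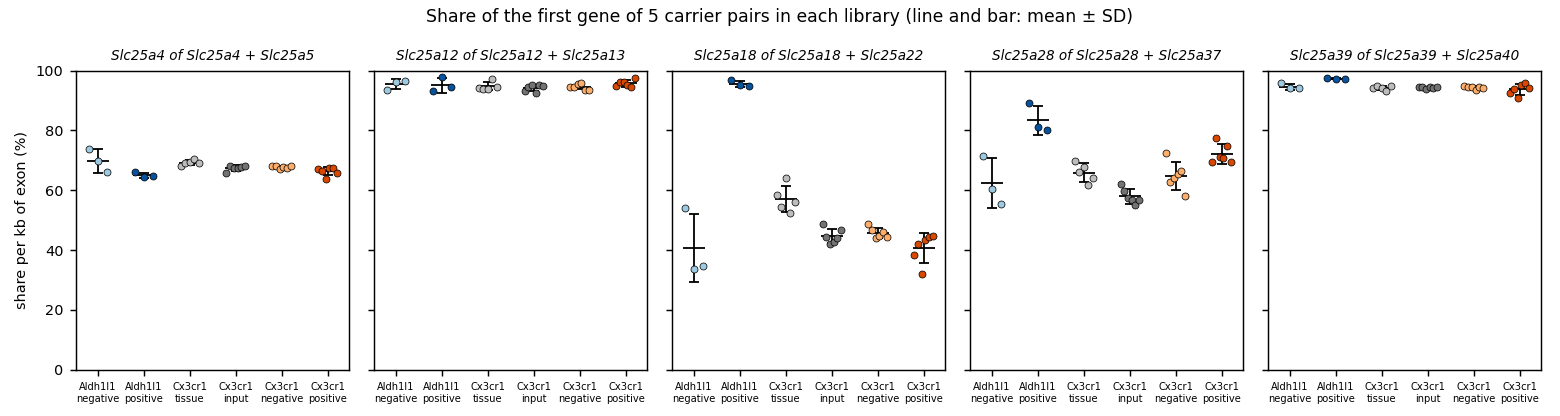
Share of the first gene of 5 carrier pairs in the pair's summed level per kb of exon, in percent, for every library of the 6 groups, with lines and bars for the mean ± SD. The share of Slc25a18 stands at 94.8% to 96.7% in the 3 Aldh1l1-NuTRAP positive fractions and at 31.9% to 64.0% in all other libraries, whereas Slc25a12 and Slc25a39 stay above 90% everywhere.

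Genes that work beside the carriers were read from lists of the pathways around them, in the comparison of the 2 positive fractions, where 30.6% of all genes tested were higher, 33.1% lower and 63.7% called in either direction. Of the carriers that have kept other symbols, Ucp3, a fatty acid linked uncoupling protein, was higher in the Aldh1l1 line at 3.42 ± 0.16 and an adjusted p of 2.47e-08. Ucp2 was at 156 ± 58.4 CPM in the Aldh1l1-NuTRAP (SD, n = 3) and 120 ± 35.0 CPM in the Cx3cr1-NuTRAP positive fraction (n = 6), a difference of 0.28 ± 0.27 that missed the threshold. Ucp2 rose over the input in the Cx3cr1 line by 1.82 ± 0.17 at an adjusted p of 1.93e-06. Mtch2 was higher at 0.46 ± 0.13, a call lost with library totals alone, and Mtch1 lay at 0.06 ± 0.13.

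Of the 7 genes of the pyruvate carrier and the carnitine enzymes, 6 met the count rule in that comparison, of which 5 were higher in the Aldh1l1 line and 1 lower. Cpt1a, which forms the acylcarnitines that Slc25a20 carries, was higher at 2.69 ± 0.16, Cpt2, which takes them apart in the matrix, at 1.61 ± 0.16, and the pyruvate carrier subunit Mpc1 at 1.79 ± 0.12. The neuronal form Cpt1c was lower at -0.99 ± 0.19. Of the 6 enzymes of the NADH shuttles, Gpd1 and Gpd2 of the glycerol phosphate shuttle were higher at 1.97 ± 0.15 and 1.08 ± 0.17, and Got1 and Got2 of the malate-aspartate shuttle were lower at -1.18 ± 0.17 and -1.13 ± 0.14, beside the lower Slc25a12 above. The malate dehydrogenases Mdh1 and Mdh2 lay at -0.25 and 0.32 and did not pass.

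Of 10 genes taken as a reference for mitochondria in general, 7 were higher in the Aldh1l1-NuTRAP positive fraction and 1 lower, with a median log2 fold change of 0.42 beside the 0.46 of the carriers. Without the positive fraction of mouse 290, 5 were higher and 1 lower at a median of 0.39. Without that of mouse 210, 8 were higher. Cs, the citrate synthase, was highest at 1.46 ± 0.15, and Tomm20, an import receptor of the outer membrane, was lower at -0.63 ± 0.14. Of the 8 import genes tested, Timm8a1, Timm13 and Timm22 were higher and Tomm70a lower, at a median of 0.47. Without the positive fraction of mouse 290 the import genes had 3 higher and 2 lower, at a median of -0.09. In that fit 4056 genes were higher and 4306 lower of 13863. With library totals alone, where the median over all genes lay at -0.39, the reference genes had 4 higher and 1 lower at a median of 0.11. The import genes then had 2 higher and 2 lower, without Timm22 and with Agk lower, the carnitine list 4 and 1, and the shuttle enzymes 2 and 3, with Mdh1 lower. In the Cx3cr1-NuTRAP positive fraction against input these lists held 2 rises and no fall of 4 carriers with other symbols, no rise and 1 fall each of the shuttle enzymes and the carnitine list, 2 rises and 1 fall of the import genes, and 2 rises of the 10 reference genes. Over all genes tested there, 23.2% rose and 25.6% fell, or 48.8% in either direction. The reference genes had no rise without mouse 209, 210 or 277, with 1 fall without mouse 209, and 4 rises without mouse 155.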

How the data were processed

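TRAP-RNAseq libraries were made with a directional kit, and the authors trimmed reads, aligned them by strand to mm10 and assigned them to RefSeq genes in Strand NGS. The deposited raw values are expected counts per gene without normalization, of which 82.4% of the nonzero ones are not whole, and they were rounded here. The authors also deposited log2 values made by DESeq normalization, which were not used. Each column was matched to its library by its title, with 0 left over.

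A gene entered a comparison if all libraries of either group exceeded 20 counts. It was tested in R 4.3.3 with edgeR 4.0.16 by quasi-likelihood (TMM, robust, two-sided), with Benjamini-Hochberg adjustment over all genes at 0.05. The SE of a fold change is its size over the square root of the test's F. Fits were tested on simulated data. CPM used TMM factors over all 29 libraries, and kb are merged exons of GENCODE vM21. Promoters are RefSeq's. Alternatives were DESeq2 1.42.0, its size factors, library totals, other filters, all groups in one fit, the mouse as a block, leaving out each mouse and, chosen after seeing the data, leaving out the libraries that stand apart.

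The members and lists were chosen with earlier results of these data known. Values by library, or ranges with medians for larger groups, are given for Slc25a34, the 4 highest and 4 lowest called between the positive fractions and between the Cx3cr1-NuTRAP positive fraction and input, the 4 at each end in the Aldh1l1 line, and the 5 pairs. Fractions of one mouse are paired by its number. Deviations of paired libraries correlated above 0.1 in 3 of 3 Aldh1l1-NuTRAP pairs, in 3 of 6 pairs of positive fraction and input and in 5 of 6 of negative fraction and input. Depth ran from 4260795 to 26857890 counts. Separate mice are the replicates. Values of some single genes are not reported here.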

Additional observations from a re-analysis of the deposited data

Results flagged for a closer look

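Of 84 sets of one carrier in one group, from the 21 carriers named by rule in the 4 groups of the Cx3cr1 line, 10 held a library far from the others of its group, and chance alone gives about 1 in 20. Of these, 7 were libraries of mouse 155, and sets that share a library are not independent of one another. In its negative fraction Slc25a33 was at 67.1 CPM (nearest other library 48.5), Slc25a39 at 91.5 (77.0), Slc25a4 at 837 (688) and Slc25a5 at 275 (231), all above the others, and Slc25a27 was below them at 36.5 (46.9). In its input Slc25a39 was at 76.4 (67.3) and Slc25a5 at 253 (215). The remaining 3 were Slc25a20 at 16.1 CPM in the input of mouse 210 (13.2), Slc25a21 at 1.93 CPM in the input of mouse 277 (1.09) and Slc25a21 at 1.63 CPM in the positive fraction of mouse 209 (0.722), all above the others, and Slc25a21 did not meet the count rule in the Cx3cr1 line.

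Of the 21 carriers named by rule, 3 ran in opposite directions from negative to positive fraction in every mouse of the 2 lines, and the difference was not tested. Most of the 21 were named for extreme values in these libraries, and the share of all genes that did the same was not counted. Slc25a45 did not meet the count rule in the Aldh1l1-NuTRAP positive fraction, where it was at 2.07 to 2.46 CPM against 3.30 to 4.18 CPM in the negative fraction. The mean log2 ratio of positive to negative fraction was 0.39 in the Aldh1l1 line and -0.45 in the Cx3cr1 line for Slc25a16, 3.79 and -0.38 for Slc25a18, and -0.75 and 1.72 for Slc25a45.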

How the results depend on the processing

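No called carrier changed direction under any alternative run, and the causes of the moves below were not tested. Counts are given as higher and lower and include carriers that met the count rule in 1 group only. In the Aldh1l1 line, all groups in one fit gave 11 lower, and leaving out a mouse gave 10 to 21 higher and 4 to 9 lower, with 4 lower without mouse 293 and 10 and 4 without mouse 294. Between the positive fractions, library totals gave 13 and 14, and leaving out a library 18 to 21 and 8. For positive fraction against input, more than 100 counts gave 11 and 7, and leaving out a mouse 5 to 11 and 5 to 8, with 11 higher without mouse 155, 5 lower without mouse 192 and 7 lower without mouse 194 or 277. Against the negative fraction, library totals, no filter, the replicate block and leaving out the libraries that stand apart each gave 1 higher, the last with 5 lower, and leaving out a mouse gave 1 to 2 and 0 to 4, with 1 and 0 without mouse 192 and 1 higher without mouse 194, 209 or 210. Against whole tissue, the replicate block gave 5 higher, and leaving out a mouse 5 to 9 and 6 to 12, with 6 higher without mouse 155, 6 and 6 without mouse 192 and 5 higher without mouse 194. Between the negative fractions, DESeq2 gave 1 lower, leaving out the libraries that stand apart 2 and 3, and leaving out a library 0 higher and 0 to 1 lower, the 1 without the Aldh1l1-NuTRAP mouse 290. For negative fraction against input, DESeq2 gave 3 and 2, more than 100 counts 2 higher, all groups in one fit 0 higher, the replicate block 13 and 2, and leaving out a mouse 0 to 8 and 0 to 2, with 8 and 2 without mouse 155. For input against tissue, the replicate block gave 5 lower, and leaving out a mouse 6 to 8 and 5 to 10, with 5 lower without mouse 192, 194 or 209. The pairing by mouse moved no other count of calls by over 1.5 times. The carriers nearest the count rule were Slc25a21, Slc25a24 and Slc25a47. In whole tissue Slc25a13, Slc25a35, Slc25a45 and Slc25a47 missed the rule through the library of mouse 210, which had 4260795 counts.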
